A study of Mus musculus with 6 samples.

Results

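The 6 mature arms of the miR-199 and miR-214 hairpins were examined in mouse liver: mmu-miR-199a-5p, mmu-miR-199a-3p, mmu-miR-199b-5p, mmu-miR-199b-3p, mmu-miR-214-3p and mmu-miR-214-5p, written below without the species prefix. They were chosen by name from the 1907 mature microRNAs of the deposited read-count table by a rule that uses names alone. Small RNA was sequenced from unsorted liver tissue of 6 male mice of mixed background, 12 weeks old per the labels. Whether this is the age at the start or at the end of the feeding was not settled here. Both groups were fed for 4 weeks. The regular group, 3 mice, ate only granulated regular chow. The soy group, 3 mice, ate granulated chow in which 25% was soy bean powder and 75% the regular food. The question was whether the soy-enriched diet alters these microRNAs. Of the 6 names, 5 had at least 1 read, and 4 passed the filter of the tests, which asked for at least 4 reads in at least 3 libraries. No cells were sorted, so the cell of origin was not measured, and fewer cells of a type cannot be told apart from less of a microRNA per cell.

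A microRNA hairpin is cut into a duplex, and either strand, named 5p or 3p after its arm, can be loaded into the silencing complex; bases 2 to 8 of the loaded strand, the seed, pair with the messenger RNA. The miR-199 and miR-214 genes are best known from mesenchymal cells. In liver these are the stellate cells, which store vitamin A at rest and deposit collagen once activated, and the same microRNAs have been studied in fibrosis.

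The hairpins lie on 3 chromosomes, each on the strand opposite to a dynamin gene (GRCm38, GENCODE M21). Mir199a-2 is at chr1:162217814-162217923 and Mir214 at chr1:162223368-162223477, both on the plus strand with 5444 bases between them. They lie inside an intron of Dnm3 on the opposite strand and inside the non-coding gene Dnm3os on their own strand, where each is held whole by an exon of 2 of its 6 annotated transcripts. Mir199a-1 is at chr9:21496495-21496564 on the minus strand, in an intron of Dnm2, and Mir199b at chr2:32318460-32318569, a plus-strand hairpin inside an intron of Dnm1. The annotation describes the reference and not the authors' mapping. The hairpins are shown because they fix which reads can be told apart; the mature sequences that RefSeq annotates in them (GRCm38.p6) are in capitals:
Mir199a-1: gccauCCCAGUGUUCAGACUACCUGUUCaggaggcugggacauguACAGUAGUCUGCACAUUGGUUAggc
Mir199a-2: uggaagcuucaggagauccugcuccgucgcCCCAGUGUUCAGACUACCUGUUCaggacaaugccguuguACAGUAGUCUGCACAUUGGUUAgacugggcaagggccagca
Mir199b: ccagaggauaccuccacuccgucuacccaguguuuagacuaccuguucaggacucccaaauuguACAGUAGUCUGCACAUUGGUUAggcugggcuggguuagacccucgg
Mir214: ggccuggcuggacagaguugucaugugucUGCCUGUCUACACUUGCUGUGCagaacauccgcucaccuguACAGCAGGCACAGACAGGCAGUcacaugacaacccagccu

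RefSeq held the mature sequence of 5 of the 6 names, here with the seed in capitals:
miR-199a-5p: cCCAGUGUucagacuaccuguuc
miR-199a-3p: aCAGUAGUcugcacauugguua
miR-199b-3p: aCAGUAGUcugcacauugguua
miR-214-5p: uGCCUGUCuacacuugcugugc
miR-214-3p: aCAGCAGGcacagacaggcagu
The mature miR-199a-3p and miR-199b-3p are the same 22 bases and occur in 3 hairpins, so no read of this arm can be given to a single gene. miR-199a-5p occurs in both miR-199a hairpins and can likewise not be divided between chromosomes 1 and 9. The stretch of the Mir199b hairpin that best matches miR-199a-5p differs from it at 1 base, C10U counted from the 5′ end of miR-199a-5p, and keeps the seed CCAGUGU; it reads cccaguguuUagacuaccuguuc, with the differing base in capitals. Reads of the miR-199a-5p and miR-199b-5p names are therefore separated by a single internal base. Outside the members, 1 further name of the table shares a seed with them, miR-761 (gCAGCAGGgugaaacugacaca, seed in capitals), which has the seed CAGCAGG of miR-214-3p and had 0 reads in every library.

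The arms of the miR-199 hairpins were recorded very unequally, with nearly all reads under 1 name. miR-199a-5p had 1355, 1297 and 518 reads in the regular libraries and 1622, 1275 and 1293 in the soy libraries. miR-199a-3p, the other strand of the same duplex, had 16 reads in regular replicate 3 and 30 in soy replicate 1. It had 0 in the other 4 libraries, and miR-199b-3p had 0 in all 6. Thus the table did not divide the identical 3p reads between the names: the 46 reads it holds all stand under miR-199a-3p. At these depths, 3 reads, taken here as a limit for a count of 0, stand for 0.235 to 0.524 CPM (reads scaled to 1e6 per library), which covers counting error only. The upper ends of the exact binomial 95% intervals for miR-199b-3p were higher, from 0.289 CPM in soy replicate 1 to 0.644 CPM in regular replicate 3. The 3p arm made up 0% of all miR-199 reads in 4 libraries, where 3 reads stand for 0.218% to 0.235%, and 3.00% and 1.81% in regular replicate 3 and soy replicate 1. In human liver the same 3p sequence is known as an abundant strand.

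The other mature sequences that carry several names also had few reads. Over the 1623 table names with a RefSeq sequence, 4 sequences are shared by several names. Besides the miR-199 3p sequence with its 46 reads, these are a passenger strand shared by let-7a-1-3p and let-7c-2-3p with 2 reads, and a miR-344 and a miR-465 sequence with 0 reads. None of these 4 reached 100 reads over the 6 libraries. Among 48 sequences that carry 1 name but come from several hairpins, 22 (45.8%) did, up to the 3528449 reads of let-7f-5p, and miR-199a-5p with 7360 is among them. Among 1566 sequences with 1 name and 1 hairpin, 275 (17.6%) did, and the median of this class was 0 reads, so few reads are common there too. What happened to reads that match several names was not tested, since the reads were not analysed here, and with so few such sequences no rate can be set. Whether the other shared sequences are made in liver at all was not tested either. The counts of the miR-199 3p arm are therefore given here and below as recorded only, and whether they follow its amount was not tested.

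**Figure D1:**
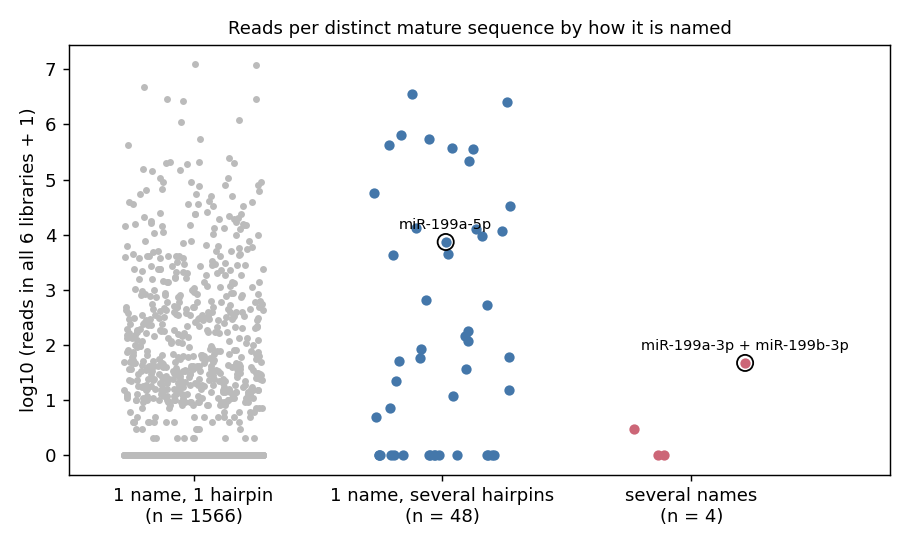
Reads summed over the 6 libraries for each distinct mature sequence (log10 of reads + 1), by whether the sequence has 1 name and 1 hairpin, 1 name and several hairpins, or several names; each point is 1 sequence, and the miR-199 sequences are ringed. The 4 sequences with several names all lie at 46 reads or below, while miR-199a-5p, made from 2 hairpins under 1 name, stands at 7360.

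Together the 6 names held 0.0130% to 0.0170% of a library's reads. The libraries held 5727546 to 12762916 reads, regular replicate 3 being the shallowest. Levels below are CPM relative to library sizes scaled by TMM (the trimmed mean method of edgeR); the mature arms are of nearly equal length, and whether reads follow the amounts of each microRNA was not tested. miR-199a-5p ranked 100 by mean level over the table, miR-214-3p 171, miR-214-5p 227, miR-199b-5p 345 and miR-199a-3p 407. miR-199a-5p lay above miR-214-3p, miR-214-3p above miR-214-5p, and miR-214-5p above miR-199b-5p in 6 of 6 libraries, with mean log2 differences of 2.33, 1.64 and 3.37. Each of these steps reached the smallest p that 6 libraries can give (0.0312, exact two-sided sign-flip test), which after Benjamini-Hochberg adjustment over the 5 neighbours was 0.0521. One of the 5 is the pair of names of the identical 3p sequence, of which miR-199b-3p is at 0 throughout, so that its p was fixed by the zeros; without this pair, a choice made after seeing the data, the adjusted exact p of the 3 steps was 0.0417. miR-199b-5p was above miR-199a-3p in only 4 of 6 libraries (exact p = 0.344), so their order is not set beyond the spread. The names were put in order by mean CPM over these same 6 libraries, so the direction of the steps was fixed before the tests.

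miR-199a-5p, which had the most reads of the 6 names and has been tied to fibroblast activation, stood at like levels in 5 of the 6 livers. It was at 132, 129.6 and 82.9 CPM in the regular and 132, 127 and 129.5 CPM in the soy libraries. Only regular replicate 3 was apart, below all others, and the groups overlapped. The means were 115 ± 27.8 CPM (SD, n = 3) in regular and 129 ± 2.53 CPM (SD, n = 3) in soy livers, a log2 fold change of 0.17 ± 0.23 (SE; 95% interval -0.35 to 0.69). It did not pass edgeR's quasi-likelihood test (adjusted p = 0.982). Without regular replicate 3 the log2 fold change was 0.0012, and without regular replicate 1 it was 0.36.

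miR-199b-5p, the strand with the same seed from the chromosome 2 hairpin, was scarce and uneven. It had 22, 47 and 0 reads in the regular and 5, 1 and 31 reads in the soy libraries. This gave 2.28 ± 2.35 CPM (SD, n = 3) in regular and 1.20 ± 1.65 CPM (SD, n = 3) in soy livers, with overlapping groups. Its share of the miR-199 5p reads ran from 0% (3 reads would be 0.579%) to 3.50% in regular and from 0.0784% to 2.34% in soy libraries. The log2 fold change of -0.93 ± 1.70 (SE; 95% interval -4.72 to 2.86, edgeR adjusted p = 0.982) rests on single libraries: it was 0.14 without regular replicate 2 and -3.10 without soy replicate 3. How the table divided reads between the 2 near-identical 5p names was not tested.

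miR-214-3p, the more abundant strand of its hairpin and known to lower connective tissue growth factor in stellate cells, was at 28.5, 25.6 and 28.2 CPM in the regular libraries. In the soy libraries it was at 15.5, 30.4 and 19.7 CPM, so soy replicate 2 held the highest value and the other soy libraries the lowest values of all. The means were 27.4 ± 1.61 CPM (SD, n = 3) and 21.9 ± 7.72 CPM (SD, n = 3). The log2 fold change was -0.33 ± 0.34 (SE; 95% interval -1.08 to 0.42, edgeR adjusted p = 0.982). It was -0.13 without soy replicate 1 and -0.64 without soy replicate 2.

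miR-214-5p, the partner strand, had its lowest soy value above its highest regular value. It had 72, 50 and 33 reads, or 7.04, 5.00 and 5.28 CPM, in the regular libraries. In the soy libraries it had 136, 108 and 93 reads, or 11.1, 10.7 and 9.32 CPM. The means were 5.77 ± 1.11 CPM (SD, n = 3) and 10.4 ± 0.93 CPM (SD, n = 3), a log2 fold change of 0.84 ± 0.47 (SE; 95% interval -0.20 to 1.89). It did not pass edgeR's quasi-likelihood test (adjusted p = 0.982; unadjusted p = 0.102 from edgeR). By limma on the deposited log2 values it was at 0.81 with an adjusted p of 0.492. The unadjusted limma p was 0.0138, 1 of 36 below 0.05 among the 435 microRNAs tested in that fit. Ranges apart with soy higher were found for 7.32% of the 437 microRNAs tested, and with soy lower for a further 5.49%, so such a separation is common in these 6 libraries. The value stayed between 0.75 and 1.09 when each library was left out.

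**Figure D2:**
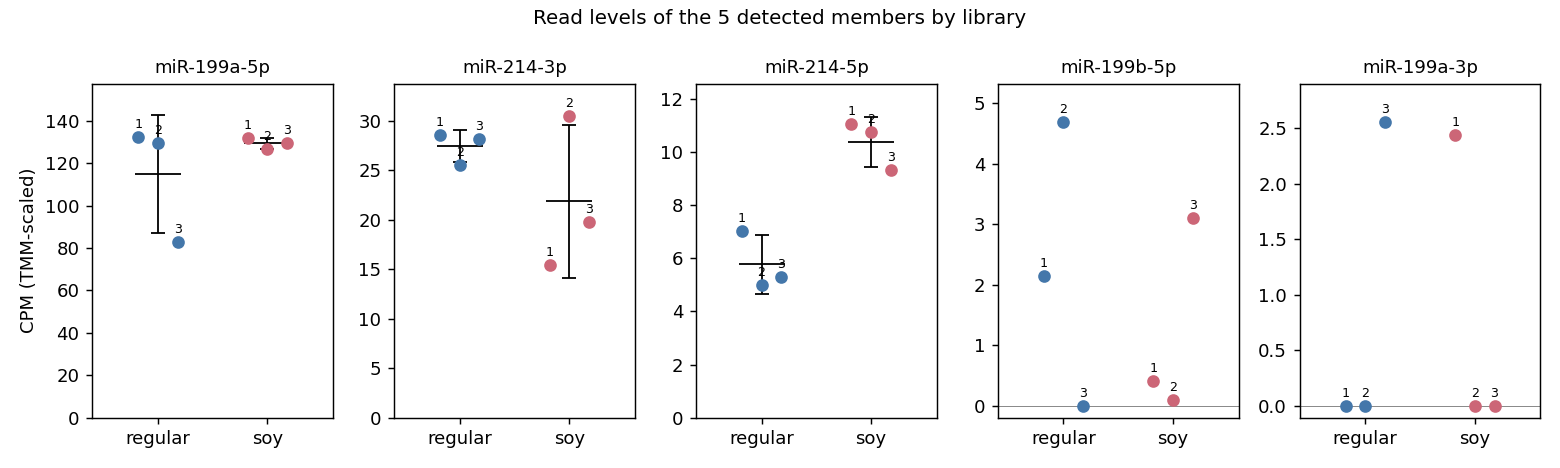
CPM (TMM-scaled) of the 5 names with reads, 1 panel each with its own linear axis; points are libraries, numbered by replicate, and for the first 3 panels the bar is the mean with SD (n = 3). Only miR-214-5p has separate groups, at 5.00 to 7.04 CPM in regular and 9.32 to 11.1 CPM in soy livers; miR-199a-5p has 1 low library, regular replicate 3 at 82.9 CPM.

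Between the diets, 0 of 437 microRNAs passed edgeR's test over the table (0%), none of the 4 tested members among them. At an unadjusted p under 0.05, 22 microRNAs (5.03%) were found by edgeR, also without a member. DESeq2 called 2 microRNAs and limma-voom 0, again no member.

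**Figure D3:**
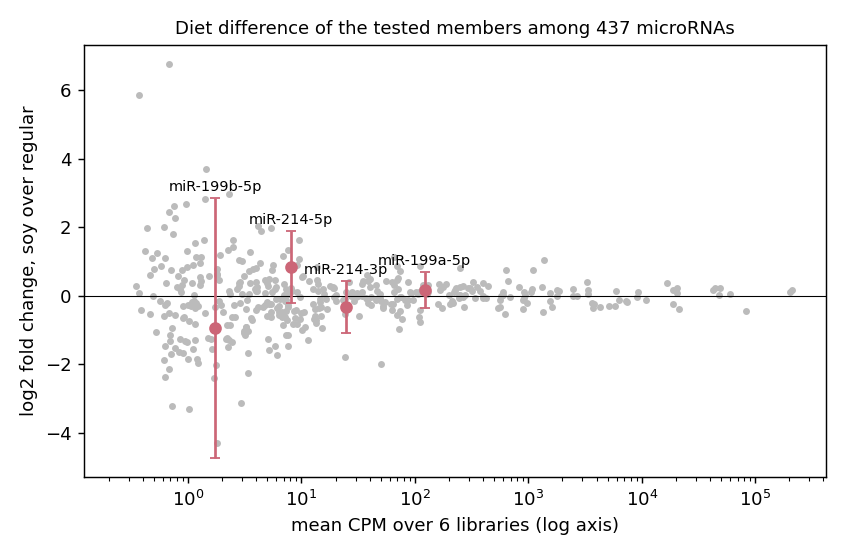
Log2 fold change of soy over regular against mean CPM (log axis) for the 437 tested microRNAs in grey, with the 4 tested members in red and their 95% intervals from edgeR's test. All 4 intervals include 0, and the values run from 0.84 for miR-214-5p to -0.93 for the scarce miR-199b-5p.

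The strands of the miR-214 hairpin had shares of reads that did not overlap between the diets. A ratio of reads within a library does not depend on scaling. miR-214-3p made up 80.2%, 83.7% and 84.2% of the reads of both strands in the regular libraries, and 58.3%, 73.9% and 67.9% in the soy libraries. The highest soy interval, 69.4% to 78.1% in soy replicate 2, touched the lowest regular interval, 75.8% to 84.2% in regular replicate 1 (95% exact binomial intervals, counting error only), so in counting error alone these 2 libraries overlap. In reads, the 3p strand was 4.06, 5.12 and 5.33 times the 5p strand in regular and 1.40, 2.83 and 2.12 times in soy livers. The log2 ratio was 2.25 ± 0.21 (SD, n = 3) and 1.02 ± 0.51 (SD, n = 3), a difference of -1.23 (two-sided exact permutation p = 0.1, the smallest that 3 mice against 3 can give; 0.3 after adjustment over the 3 ratios compared).

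Set against all hairpins, the miR-214 ratio did not pass the test. This comparison, added after seeing the data, took the 118 hairpins with both strands tested. By limma on the log2 ratios 0 of them passed (0%), and 6 (5.08%) were below 0.05 without adjustment. The miR-214 difference of -1.23 had a 95% interval of -2.17 to -0.29 and a limma adjusted p of 0.793. It ranked 2 by p and 28 by size. Separate ranges occurred in 12 of the 118 (10.2%), with soy lower in 6 (5.08%), miR-214 included. By a count test of strand use (edgeR diffSpliceDGE), 0 hairpins were called and miR-214 had an adjusted p of 0.615.

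**Figure D4:**
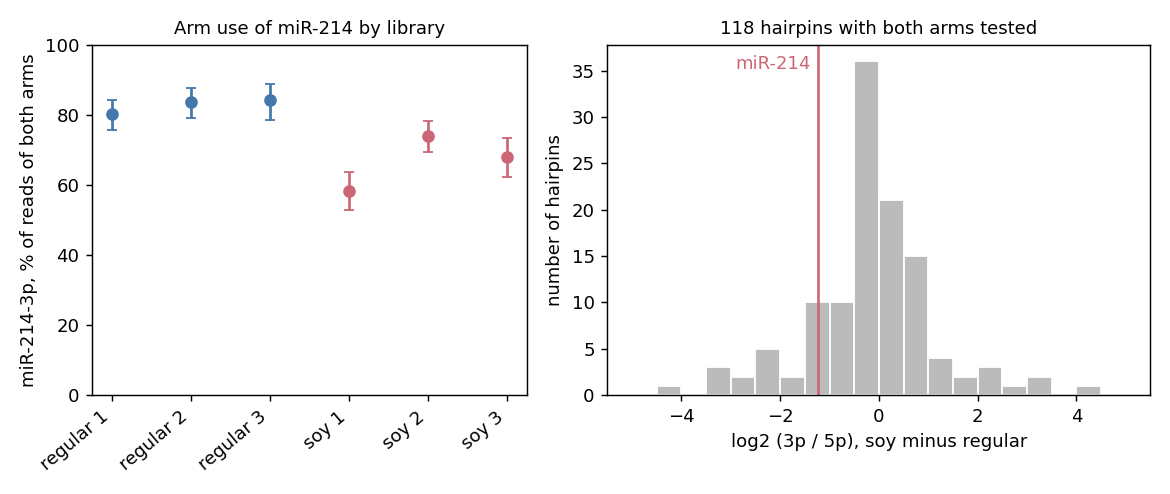
Left, miR-214-3p as a percent of the reads of both miR-214 strands in each library, with 95% exact binomial intervals; regular libraries lie at 80.2% to 84.2% and soy libraries at 58.3% to 73.9%. Right, the difference in log2 (3p / 5p) between the diets for 118 hairpins in bins of 0.5, with miR-214 marked at -1.23.

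The ratio of miR-199a-5p to miR-214-3p, strands of neighbouring hairpins in Dnm3os, did not separate the diets. miR-199a-5p had 4.64, 5.07 and 2.94 times the reads of miR-214-3p in regular and 8.54, 4.17 and 6.56 times in soy livers (log2 difference 0.58, exact permutation p = 0.3). Part of the miR-199a-5p reads can come from Mir199a-1 on chromosome 9, which this ratio cannot remove. The ratio of miR-199 3p to 5p reads was set by which libraries held any 3p read, 1 of each diet (log2 difference -0.21, exact permutation p = 1).

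Pairs of members differed in how closely they kept their proportion across the 6 livers. Likeness was measured as the SD of the log2 ratio of (CPM + 0.5) over the 6 libraries, small where a pair keeps its proportion. It was 0.409 for miR-199a-5p with miR-214-5p, 0.523 with miR-214-3p and 0.729 between the miR-214 strands, against a median of 0.664 to 0.783 for each of these names with all other tested microRNAs. By this measure miR-199a-5p ranked 35 among the microRNAs nearest to miR-214-5p, and miR-214-5p ranked 115 among those nearest to miR-199a-5p. miR-214-3p ranked 163 for miR-199a-5p and 205 for miR-214-5p. The pairs with miR-199b-5p were wide, from 1.30 to 1.63, beside its median of 1.52. Closest to miR-199a-5p were miR-24-3p (0.0875), miR-210-5p (0.134) and miR-676-3p (0.152). Closest to miR-214-3p were miR-574-3p (0.076), miR-423-5p (0.122) and miR-423-3p (0.162), and closest to miR-214-5p were miR-335-3p (0.143), miR-125a-5p (0.243) and miR-146b-5p (0.251). miR-199b-5p was nearest to miR-183-3p (0.456), miR-8094 (0.514) and miR-342-5p (0.698), wider ratios for names of few reads. In such names the added 0.5 weighs most. The 2 strands of miR-214 shared no name among their nearest 3. These names are the smallest SDs picked from all other tested microRNAs in the same 6 libraries. Whether they lie closer than such picking or counting error alone would give was not tested.

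Of 13 other microRNAs listed for stellate and mesenchymal cells, 12 were tested, of which 8 had a higher and 4 a lower mean in soy, with 0 passing edgeR's adjusted test. Their median log2 fold change was 0.09, beside -0.02 over all 437. Their summed level was 18686 to 26921 CPM in regular and 21347 to 29015 CPM in soy livers, so the groups overlapped. miR-143-3p, the smooth muscle and stellate strand that dominates the sum, was at 0.23 ± 0.18 (log2 fold change, SE), and miR-125b-5p, also of mesenchymal cells, at -0.19 ± 0.22. The nearest relative in level, miR-195a-5p, was at 99.4 ± 7.65 CPM in regular and 91.5 ± 13.6 CPM in soy livers (SD, n = 3), a log2 fold change of -0.12 ± 0.21 (SE). 1 of the 12, miR-145a-5p, had an unadjusted edgeR p under 0.05 and ranges apart with soy lower. Its log2 fold change was -0.96 ± 0.22 (SE, edgeR adjusted p = 0.295). The paper lists miR-145a-5p with a positive log2 fold change in soy-fed animals, the opposite sign, and the reason was not tested. Of 15 microRNAs tied to liver fibrosis, all tested, 12 were at higher and 3 at lower means in soy, 0 passed, and the median was 0.20. This stands beside 212 higher and 225 lower of all 437, and whether the list differs from these was not tested. miR-21a-5p, raised in injured liver in mice, was at 0.22 ± 0.19, miR-122-5p at -0.37 ± 0.18 and miR-27b-3p at 0.09 ± 0.13. The 3 at lower means were miR-122-5p, miR-378a-3p (-0.31 ± 0.14) and miR-222-3p (-0.01 ± 0.23). Ranges apart were found for 2 of the 15 with soy higher, miR-34a-5p and miR-27a-3p, beside 7.32% of all tested. They were found for 1 with soy lower, miR-378a-3p, beside 5.49%. The list was not divided by whether a microRNA is tied to more or to less fibrosis, so its tally gives no direction of fibrosis. miR-122-5p is also in the hepatocyte list and miR-155-5p in the leukocyte list.

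Unlike the stellate list, whose sums overlapped, the markers of 3 other cell types had higher summed levels in soy livers. How often sums of other microRNAs separate in this way was not tested, and the lists were chosen with earlier results of these data known. The summed leukocyte microRNAs (6 of 6 tested) were at 2066 to 2368 CPM in regular and 2706 to 3550 CPM in soy livers. The endothelial pair was at 14482 to 17936 and 20115 to 21088 CPM, and the 5 epithelial ones at 208 to 240 and 254 to 297 CPM, so in each of these 3 sums the groups were apart with soy higher. The sums were carried by some of their members. Most of the endothelial sum is miR-126a-5p, at a mean of 16750 CPM beside 1775 CPM for miR-126a-3p. Ranges apart with soy higher were found for miR-142a-5p and miR-150-5p of the 6 leukocyte names, for miR-126a-5p but not miR-126a-3p (log2 fold change -0.01), and for miR-141-3p and miR-429-3p of the 5 epithelial names, beside 7.32% of all microRNAs tested. A lower mean in soy was found for 1 leukocyte, 1 endothelial and 2 epithelial names. The hepatocyte list (5 of 5 tested, 267601 to 350945 against 287155 to 335077 CPM), the erythroid list (3 of 3, 718 to 1636 against 1216 to 1255 CPM) and the muscle list (1 of 3, 4.90 to 6.88 against 3.42 to 12.0 CPM, with 1 marker at 0 throughout) overlapped. No marker of these lists passed edgeR's adjusted test. The part of these cells in the miR-214-5p difference was not tested.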

How the data were processed

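Small RNA libraries (TruSeq kit, Illumina NextSeq) came from 6 livers. The deposited table of counts holds whole reads per mature microRNA without normalization; which aligner, build or miRBase release it rests on is not given in the sources used here. The deposited log2 values were scaled by the authors and are absent exactly where a count is below 4 (0 mismatches); they served as an alternative. Every sample column matched 1 label by title and library code (0 unused), and the direction of each difference rests on these names alone. Were the diet names exchanged, every direction given here would turn. The labels gave the diet groups.

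The 437 microRNAs reaching 4 reads in 3 or more libraries were tested with edgeR 4.0.16 (R 4.3.3), TMM scaling, the quasi-likelihood test and Benjamini-Hochberg adjustment at 0.05. DESeq2 1.42.0 and limma 3.58.1 were alternatives. Ratios (log2, 0.5 added to the counts) went to exact permutation tests, two-sided, over 20 assignments. The edgeR fit, the limma fit of strand ratios and the count test of strand use were run on simulated data. The exact tests and the other alternatives were not. RefSeq sequences matched 1623 of 1907 names. Named were the members, seed sharers, the 3 nearest microRNAs by log2-ratio SD, and leading or touching list markers. The members and lists were chosen with earlier results of these data known. No molecular identifiers were used, so the exact binomial intervals cover counting error only. The intervals of the edgeR and limma fits also take in the spread between mice.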

Additional observations from a re-analysis of the deposited data

How the results depend on the processing

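Across 15 alternatives the adjusted p of the 4 tested members never fell below 0.492, and the signs of miR-199a-5p (0.0012 to 0.36), miR-214-3p (-0.64 to -0.13) and miR-214-5p (0.75 to 1.09) held; miR-199b-5p (-3.10 to 0.14) turned to 0.14 without regular replicate 2. The count of microRNAs called was 0 by edgeR but 8 without a filter, 2 by DESeq2 and 5 with a replicate block, and 0 to 0 when single libraries were left out. The replicate numbers were not taken to pair the mice: deviations of same-numbered libraries correlated at 0.0796, -0.0937 and 0.0178. With the block miR-214-5p was at 0.86 and the miR-214 log2 ratio at -1.23. That ratio ranged from -1.47 to -0.96 without single libraries, and from -1.47 to -0.81 in the fit over all hairpins. The miR-199a-5p to miR-214-3p ratio ranged from 0.34 to 0.87. The miR-199 3p to 5p ratio turned to 1.93 without regular replicate 3, 0.71 without soy replicate 2 and 0.74 without soy replicate 3 (range -2.08 to 1.93), since 2 libraries hold all 3p reads. Of the 5 steps in the order of levels, 0 passed after adjustment, and 3 did without the pair of identical 3p sequences, since fewer steps were then adjusted for. Depth limits the miR-199b-5p values, which rest on 0 to 47 reads a library.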

Other observations

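Scaled by total reads alone, before TMM scaling, miR-199a-5p stood at 127.09, 127.09 and 127.07 CPM in the 3 soy livers, an SD of 0.0126 CPM. Counting error alone would give an SD of about 3.42 CPM at these depths, so these values lie closer together than the counts can resolve. In the regular livers the SD was 22.5 CPM against 3.69 CPM from counting. After TMM scaling the soy SD was 2.53 CPM. For miR-214-5p the SD was 1.10 CPM in regular and 0.909 CPM in soy livers, against 0.849 and 0.967 CPM from counting, and for miR-214-3p it was 3.00 and 8.04 CPM, against 1.88 and 1.43 CPM. An SD over 3 mice is itself imprecise, and no test was made of these values.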
